A study of Mus musculus with 12 samples.

Results

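The DNA damage repair genes described here are 41 genes of the mouse genome that were listed by name and located in the GENCODE release M21 annotation, out of 21938 protein-coding genes. For each gene, the start sites of all its annotated transcripts were searched for a MOF ChIP-seq peak within 1 kb, called a promoter peak below. The peaks came from visceral white adipose tissue (WAT) of mice aged 8 weeks and fed a standard diet, of strain C57BL/6 in the labels and backcrossed with C57BL/6J by the study's methods. One group was wild type (Mof+/+) and the other carried a single functional copy of Mof in the whole body (Mof+/-), with no further allele or agent in either group. MOF, also called KAT8, is the enzyme that acetylates lysine 16 of histone H4. The labels give 12 libraries in 6 groups of 2 (ChIP for MOF, ChIP for histone H3, and input, in each genotype), and 1 MOF peak list for each genotype was analysed. Neither list names a library or gives values per animal, so a difference between the lists cannot be set against the spread between animals.

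Repair genes fall into pathways that each recognise a different lesion. Homologous recombination copies an intact sister sequence across a double-strand break, end joining ligates the broken ends directly, mismatch repair removes misincorporated bases after replication, and the excision pathways cut out bulky lesions or single damaged bases. A layer of kinases and adaptors detects damage and passes the signal to the cell cycle and to p53, while most adipocytes in the mature tissue no longer divide. Acetylation of histone H4 by MOF is itself known as a factor in the cellular response to DNA breaks, but the data here report only where MOF was found on the genes, and expression and damage were not analysed here.

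Sequences upstream of 8 of these genes are given first, because they carry the features that the comparisons below return to, namely CpG sites, short promoter motifs and the presence or absence of a MOF peak. They are RefSeq promoter sequences of GRCm38.p6 in the direction of transcription, limited to stretches outside annotated exons, and capitals mark every match on either strand to a CCAAT box (CCAAT), a GC box (GGGCGG), an ETS core (CCGGAAG) or a cyclic AMP response element (TGACGTCA). Apex1 (chr14:50924894-50924967, plus strand) and Trp53 (chr11:69580256-69580358, plus strand) had a promoter peak in both lists. Palb2 (chr7:122132986-122133040, minus strand), Pms2 (chr5:143909848-143909963, plus strand), Xrcc3 (chr12:111813874-111814023, minus strand) and Parp1 (chr1:180568774-180568923, plus strand) had one in the Mof+/+ list alone. Atm (chr9:53536741-53536890, minus strand) and Brca2 (chr5:150522480-150522629, plus strand) had none.
Apex1: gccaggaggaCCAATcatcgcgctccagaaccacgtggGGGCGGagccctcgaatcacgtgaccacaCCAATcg
Trp53: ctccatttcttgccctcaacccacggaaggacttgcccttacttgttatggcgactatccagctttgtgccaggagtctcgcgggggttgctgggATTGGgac
Palb2: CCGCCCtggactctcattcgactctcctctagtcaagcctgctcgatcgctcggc
Pms2: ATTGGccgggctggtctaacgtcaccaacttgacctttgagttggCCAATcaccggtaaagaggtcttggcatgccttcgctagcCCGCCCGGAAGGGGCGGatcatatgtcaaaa
Xrcc3: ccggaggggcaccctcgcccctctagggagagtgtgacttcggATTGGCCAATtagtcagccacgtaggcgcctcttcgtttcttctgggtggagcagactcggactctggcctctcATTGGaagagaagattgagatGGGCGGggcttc
Parp1: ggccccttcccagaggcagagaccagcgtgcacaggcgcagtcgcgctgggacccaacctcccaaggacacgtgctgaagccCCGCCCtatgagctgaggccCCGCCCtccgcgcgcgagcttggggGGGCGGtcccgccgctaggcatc
Atm: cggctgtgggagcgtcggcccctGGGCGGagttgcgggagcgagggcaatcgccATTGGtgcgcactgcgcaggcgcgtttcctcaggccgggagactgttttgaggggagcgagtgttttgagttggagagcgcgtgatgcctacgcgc
Brca2: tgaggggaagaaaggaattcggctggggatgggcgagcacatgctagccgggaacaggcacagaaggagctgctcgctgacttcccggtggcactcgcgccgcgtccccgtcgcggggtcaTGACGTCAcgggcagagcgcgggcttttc

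The stretches of Atm and Brca2, which lacked a peak, held 17 and 16 CpG sites in 150 bp. Those of Xrcc3 and Parp1, which had one, held 8 and 14 in the same length.

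Most repair genes had a MOF promoter peak in the Mof+/+ list at the authors' threshold. Of the 41 genes, 31 had a promoter peak in the Mof+/+ list (75.6%, 95% Wilson interval 60.7 to 86.2), against 41.04% of all protein-coding genes. None of the members lies on a sex chromosome, and among autosomal genes alone the share was 42.7%. Only 3 of the 41, Chek1, Trp53 and Apex1, had a promoter peak in the Mof+/- list (7.32%, 2.52 to 19.4), against 1.32% of all protein-coding genes. The Mof+/+ count depended on the threshold. At a q-value of at most 0.001 it was 16 of 41 (39.0%), beside 31.3% of protein-coding genes, and among as many of the strongest Mof+/+ peaks as the Mof+/- list holds it was 0 of 41, beside 3.12%. The 10 genes without a Mof+/+ promoter peak, namely Brca2, Rad51c, Rad52, Rad54l, Atm, Mdc1, Lig4, Ercc2, Lig1 and Lig3, had none in the Mof+/- list either. The intervals cover counting error over genes only.

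Among 52 further repair genes the share in the Mof+/+ list was similar, with 42 of 52 (80.8%, 68.1 to 89.2) carrying a promoter peak and a median fold enrichment of 3.76. None of these 52 genes was in the Mof+/- list, a share of 0 with a 95% Wilson interval up to 6.88%. The share was highest for 8 of 9 homologous recombination genes and 9 of 10 signalling genes of that wider list and lowest for 2 of 4 mismatch repair genes.

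**Figure D1:**
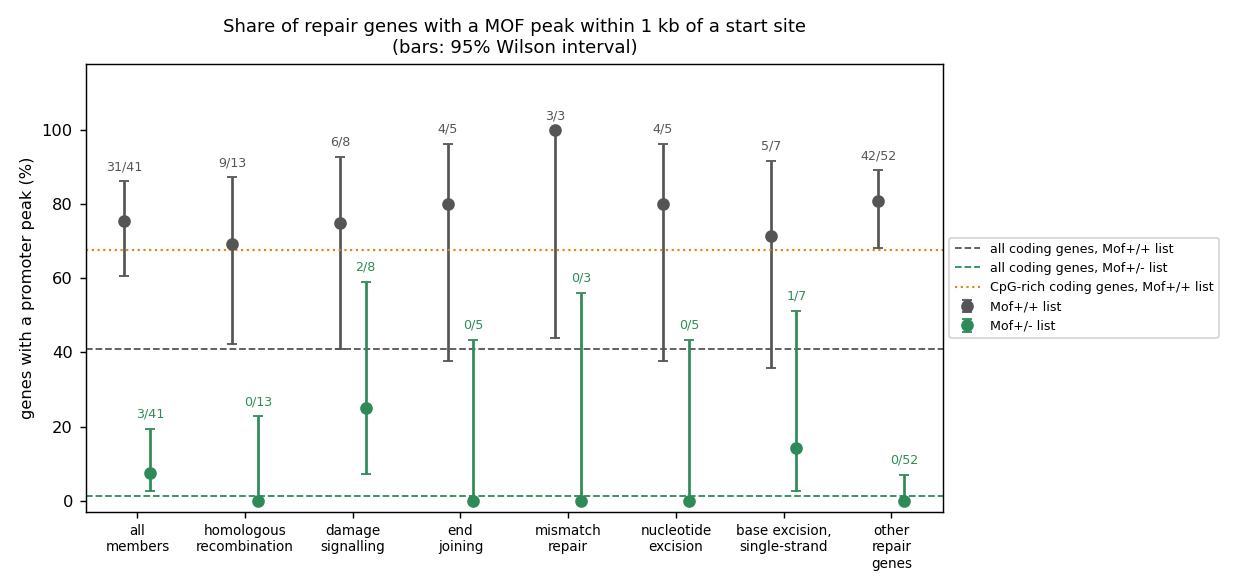
Share of genes with a MOF peak within 1 kb of a start site (vertical axis, percent) for all 41 members, each pathway and the 52 other repair genes, in the Mof+/+ (grey) and Mof+/- (green) lists, with 95% Wilson intervals and counts, and with dashed lines for all protein-coding genes and a dotted line for those with a CpG-rich start. The Mof+/+ shares of the pathways sit between 69.2% and 100%, with intervals that overlap, and all but 2 pathways are at 0 in the Mof+/- list.

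The lists differed in size and depth, which bears on every comparison between the genotypes. There were 19773 peaks in Mof+/+ and 731 in Mof+/-, with a median of 16 and 14 fragments over the summit and a lowest input background of 3.52 and 2.26 fragments. Genotype and sequencing depth therefore cannot be told apart in the number of genes called. In bulk tissue, fewer cells with MOF at a promoter and less MOF in each cell cannot be told apart either. Promoter peaks in the Mof+/+ list were found at 6 of 10 adipocyte markers, 8 of 10 B cell markers and 7 of 10 T cell markers, with 0, 1 and 0 in the Mof+/- list. The shares of all protein-coding genes were 41.04% and 1.32%. The part of cell composition in the values below was not tested.

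The promoter peaks of repair genes were modest in strength and had summits close to an annotated start site. Over the 31 genes with a Mof+/+ promoter peak, the fold enrichment at the summit, which is the number of ChIP fragments relative to the local input background with 1 added to each, had a median of 3.40 (quartiles 3.10 and 4.43, range 2.34 to 5.53). Across all 9003 protein-coding genes with such a peak the median was 3.98, and 12 of the 31 members lay above it. Peaks were a median of 769 bp wide (range 282 to 1892), beside 834 bp for all protein-coding genes, and 13 of 31 were wider than that. The summit lay a median of 114 bp from the nearest start site (range 1 to 778), beside 193 bp. Members with a promoter peak had a median of 6 annotated starts and protein-coding genes with one had 5. More starts shorten the distance to the nearest by construction, and their part in the difference was not tested. It was within 250 bp in 23 of 31 genes (74.2%, 56.8 to 86.3), beside 59.7% of protein-coding genes, and within 500 bp in 28 of 31, beside 83.8%.

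Summits fell on both sides of the nearest annotated start. In 16 of 31 genes the summit was upstream and in 15 downstream, whereas 39.4% of all protein-coding genes with a promoter peak had it upstream and 60.4% downstream. The nearest start can lie inside the gene, as for Ung, Xrcc1 and Apex1, whose summits counted as upstream. Sides relative to the 5′ end of the gene model alone were not compared, so the contrast with all genes may depend on this choice. The peak itself covered a start site in 26 of 31 genes. Measured against the annotation, 22 summits lay in the member's own transcript, of which 11 were in a UTR, 8 in an intron, 2 in coding sequence and 1 in a noncoding exon. A further 5 were intergenic, 2 lay only in a divergent neighbour and 2 only in another gene. A second promoter peak was found for Xrcc3 and Trp53 alone (6.45% of 31), beside 21.7% of protein-coding genes.

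**Figure D2:**
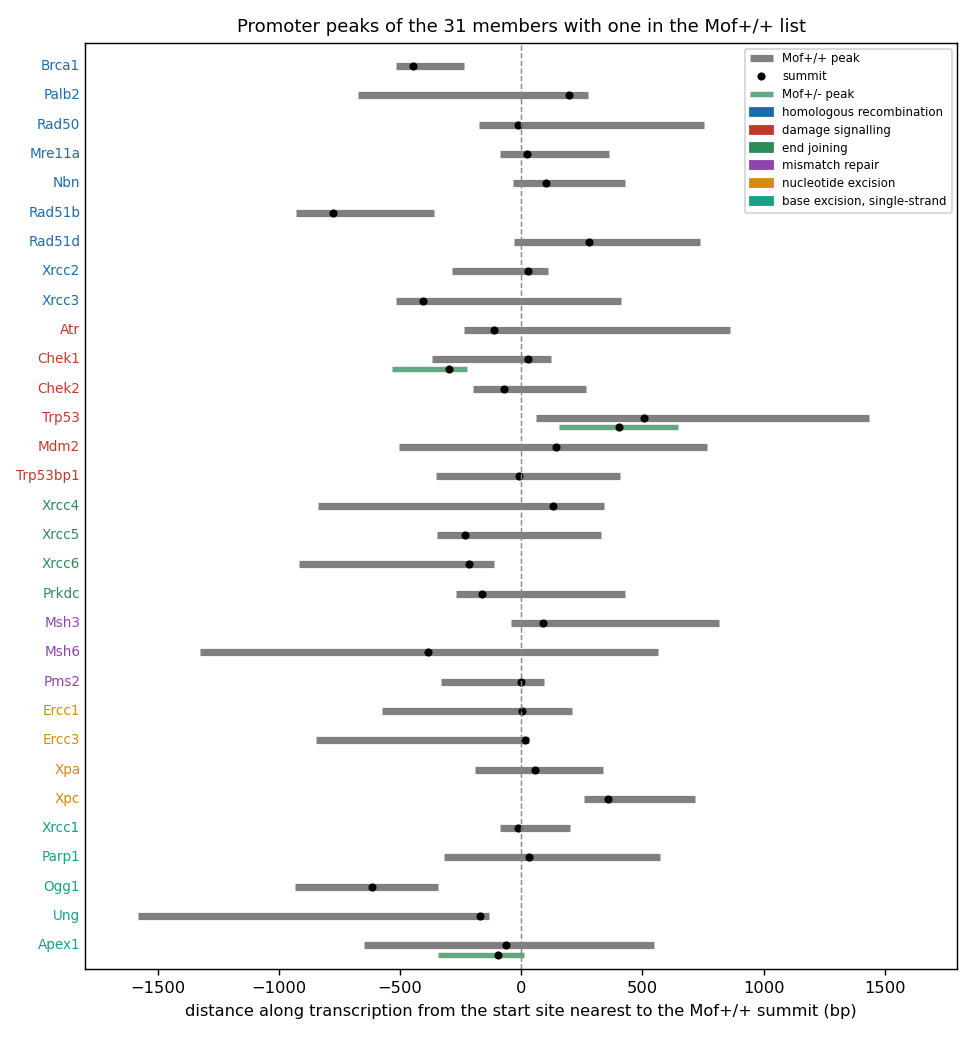
Extent (bar) and summit (black dot) of the strongest promoter peak of each of the 31 members with one in the Mof+/+ list (grey), and of the 3 Mof+/- peaks (green), along transcription in bp from the start site nearest to the Mof+/+ summit, with gene names coloured by pathway. Most bars cross 0, and the summits of Rad51b and Ogg1 lie farthest upstream, at 778 and 618 bp.

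Homologous recombination genes had promoter peaks in 9 of 13 cases (69.2%, 42.4 to 87.3), with the lowest median fold enrichment of the pathways. That median was 3.10 (range 2.34 to 5.53), and 1 of the 9, Xrcc3, was above the median of all protein-coding genes. Their median width was 567 bp and their median summit distance 197 bp. A promoter peak passed a q-value limit of 0.001 in 2 of 13, beside 31.3% of protein-coding genes. At the authors' threshold the share of protein-coding genes was 41.04%, here and beside the counts of each pathway below.

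The 3 genes of the complex that senses and trims broken ends all had a peak across the start. At Rad50, the ATPase that tethers the ends, the peak at chr11:53706564-53707495 was 932 bp wide and 3.76-fold enriched, with 16 fragments over a summit 14 bp upstream of the start. At Mre11a, the nuclease, it was 448 bp wide and 3.12-fold enriched with 16 fragments, and its summit lay in a stretch annotated as UTR of both Mre11a and its divergent neighbour Ankrd49. At Nbn, the adaptor that links the complex to signalling, it was 461 bp wide and 3.10-fold enriched, with 13 fragments and a summit 101 bp downstream of the start.

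The Brca1, Palb2 and Brca2 proteins act in a chain that loads the recombinase on single-stranded DNA, and their genes differed. Brca1 had the narrowest peak of all members, 282 bp at chr11:101552193-101552474, 3.00-fold enriched with 17 fragments. Its summit lay 447 bp upstream of Brca1 in the UTR of Nbr1, whose start is 194 bp away on the other strand, and the peak did not cover a start site of Brca1. Palb2, the bridge of the chain, had a 948 bp peak that was 3.32-fold enriched with 14 fragments and covered the start. Brca2, the loader itself, had no peak within 1 kb, and the nearest Mof+/+ peak was 21569 bp away.

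The recombinase paralogs, which assist the assembly of the recombinase filament, ranged over the whole strength of the members. Xrcc3 had the highest fold enrichment of any member together with Msh3, at 5.53 with 24 fragments, in a 926 bp peak at chr12:111813463-111814388. The summit of that peak, 407 bp upstream of Xrcc3, was in coding sequence of the divergent Zfyve21, and a second, weaker peak (3.10-fold, 350 bp) lay in an intron of Xrcc3. Xrcc2 had the lowest value, 2.34, with 16 fragments on a higher input background of 6.26, and its summit lay 28 bp downstream of the start.

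Rad51b and Rad51d both reached 3.10-fold with 13 fragments. The Rad51b peak was intergenic with its summit 778 bp upstream of the start, the longest distance of any member. Rad51b also held 14 further Mof+/+ peaks in its gene body, more than any other member. It is the longest gene of the list (chr12:79297282-79814690), and the count was not scaled to length. The Rad51d summit lay 278 bp into the gene, in an intron. Rad51c, of the same family, had no promoter peak and its nearest Mof+/+ peak was 17566 bp away. Rad52, which anneals single strands, and Rad54l, a motor protein that helps the recombinase invade the sister sequence, also had none, with the nearest peaks at 53790 and 20697 bp.

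Damage signalling genes had promoter peaks in 6 of 8 cases (75.0%, 40.9 to 92.9), with a median fold enrichment of 3.69, the largest median width of the pathways at 930 bp, and a median summit distance of 93.5 bp. With the q-value limit at 0.001, 3 of 8 kept one, beside 31.3% of protein-coding genes. The sensor kinases of the pathway differed from each other. Atr, which responds to single-stranded DNA, had a 1100 bp peak that was 2.89-fold enriched with 18 fragments, with a summit 114 bp upstream of the start, in an exon of a noncoding gene. Atm, which responds to double-strand breaks, had none, with its nearest Mof+/+ peak 100844 bp away, although another protein-coding gene starts 307 bp from it on the opposite strand.

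The checkpoint kinases below them both had peaks. Chek2, downstream of Atm, reached 4.49-fold with 21 fragments in a 467 bp peak whose summit was 73 bp upstream of a start and in an intron of Chek2. Chek1, downstream of Atr, reached 3.09-fold with 15 fragments in a 490 bp peak, which lay in the first part of the gene near a start inside the model. The p53 gene and its regulator were stronger than the median of coding genes. Mdm2, the ubiquitin ligase that holds p53 low, had a 1272 bp peak at chr10:117709917-117711188 that was 4.29-fold enriched with 19 fragments.

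The adaptors that collect at breaks were at the low end. Trp53bp1, which protects ends and favours end joining, had a 760 bp peak of 2.88-fold with 12 fragments, the lowest fragment number among the members along with Pms2, and a summit 8 bp upstream of a start. Mdc1, the scaffold that binds the marked histone beside a break, had no promoter peak, and its nearest Mof+/+ peak at 3273 bp was the closest of those of the 10 genes without one.

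End joining genes had promoter peaks in 4 of 5 cases (80.0%, 37.6 to 96.4), with a median fold enrichment of 3.83 and a median width of 752.5 bp. With the q-value limit at 0.001, 2 of 5 kept one, beside 31.3% of protein-coding genes. Xrcc4, the scaffold of the ligase, had the strongest at 5.10-fold with 23 fragments, in a 1181 bp peak at chr13:90089181-90090361. Its start is 41 bp from that of the divergent Tmem167, and the summit lay in the UTR of that gene and in an intron of Xrcc4. Lig4, the ligase itself, had no promoter peak, and its nearest Mof+/+ peak was 853824 bp away, the longest such distance among the members.

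The genes of the Ku heterodimer, which caps broken ends, both had a peak that covered a start, with its summit upstream. Xrcc5 reached 4.26-fold with 24 fragments at a summit 232 bp upstream, and Xrcc6 reached 3.40-fold with 15 fragments at a summit 214 bp upstream. The Xrcc6 peak belonged to a start site inside the gene model, at chr15:82016369, shared with the divergent Desi1, and not to the 5′ end of the model at 81987835. Prkdc, the kinase that Ku recruits, reached 3.32-fold with 14 fragments at an intergenic summit 163 bp upstream of its start, between it and Mcm4.

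Mismatch repair genes all had a promoter peak, 3 of 3 (100%, 43.9 to 100), with a median fold enrichment of 3.17 and a median width of 862 bp. With the q-value limit at 0.001, 2 of 3 kept one, beside 31.3% of protein-coding genes. Msh3, the partner that recognises larger loops, reached 5.53-fold with 24 fragments in an 862 bp peak at chr13:92354136-92354997. Msh6, the partner that recognises single mismatches, had the widest peak of all members, 1892 bp at chr17:87973737-87975628, but on an input background of 6.26 its 22 fragments gave 3.17-fold, with 1 added to each. Pms2, which nicks the new strand, had a 426 bp peak of 2.88-fold with 12 fragments and a summit 1 bp from a start, the closest of all members. The stretch shown above for Pms2 holds 2 CCAAT boxes and adjoining ETS and GC box matches.

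Nucleotide excision repair genes had promoter peaks in 4 of 5 cases (80.0%, 37.6 to 96.4), with a median fold enrichment of 4.09 and the shortest median summit distance of the pathways, 36.5 bp. With the q-value limit at 0.001, 3 of 5 kept one, beside 31.3% of protein-coding genes. Xpa, which verifies the lesion, reached 4.65-fold with 20 fragments, and Ercc1, the partner of the nuclease that cuts beside the lesion, reached 4.42-fold with 19 fragments at a summit 2 bp from a start. Xpc, which finds distorted DNA, reached 3.76-fold with 16 fragments, but its 459 bp peak lay inside the gene and its summit 357 bp downstream of the start. The helicases of the repair and transcription factor TFIIH differed from each other. Ercc3 had a weak peak (2.56-fold, 14 fragments), while Ercc2 had none, with its nearest Mof+/+ peak at 22102 bp.

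Base excision and single-strand break repair genes had promoter peaks in 5 of 7 cases (71.4%, 35.9 to 91.8), with the highest median fold enrichment of the pathways, 4.42, and a median width of 892 bp. With the q-value limit at 0.001, 4 of 7 kept one, beside 31.3% of protein-coding genes. Parp1, which senses single-strand breaks, reached 5.12-fold with 24 fragments at a summit 31 bp downstream of a start and in its UTR, in the peak chr1:180568610-180569501. Apex1, the endonuclease that cuts at a lost base, had the most fragments of any member, 28, and reached 4.42-fold in a 1198 bp peak.

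The glycosylases, which remove a damaged base, both had a peak. Ogg1, for oxidised guanine, reached 4.87-fold with 21 fragments at a summit 618 bp upstream, in an intron of the overlapping Gm15492, so that its peak did not cover the start. Ung, for uracil, had a 1451 bp peak of 3.54-fold with 15 fragments. Xrcc1, the scaffold of the pathway, had a narrow 290 bp peak of 3.32-fold with 14 fragments, 13 bp upstream of a start. The ligases of the pathway had none. The nearest Mof+/+ peak was 238564 bp from Lig1 and 34205 bp from Lig3, the partner of Xrcc1. With Lig4, none of the 3 ligase genes of the list had a promoter peak in either genotype. The ligases were not one of the pathway groups, and most protein-coding genes also lack such a peak. The shares with one were 41.04% in the Mof+/+ and 1.32% in the Mof+/- list.

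**Figure D3:**
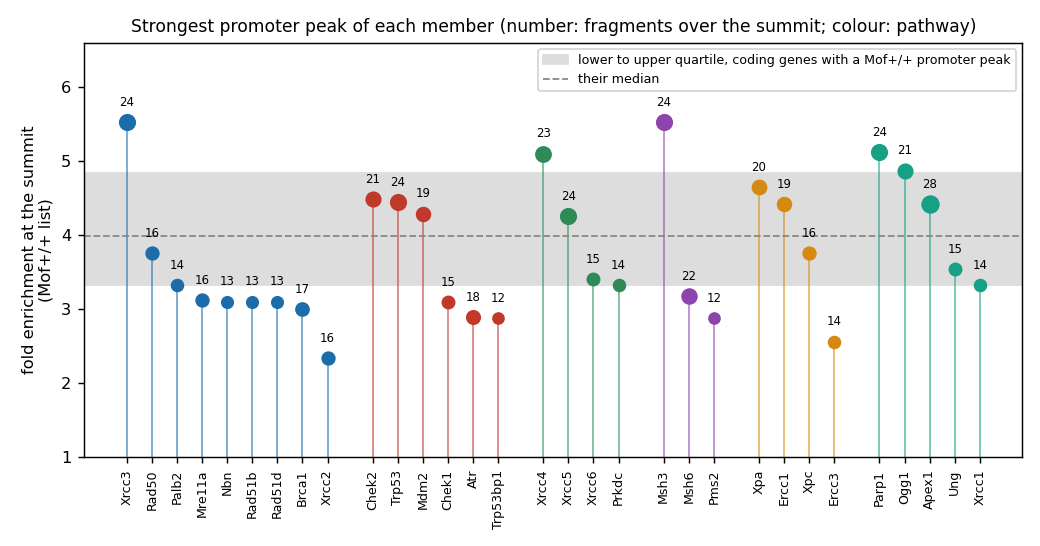
Fold enrichment at the summit of the strongest Mof+/+ promoter peak (vertical axis, starting at 1) for the 31 members with one, ordered by value within each pathway, with the number of fragments over the summit beside each point and point area in proportion to it. The dashed line and band give the median, 3.98, and quartiles of protein-coding genes with a promoter peak, and 8 of the 9 homologous recombination genes sit below the line.

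The pathways were not separated by these counts. Their intervals overlapped throughout in the Mof+/+ list, and the smallest groups hold 3 to 5 genes. The medians of fold enrichment differed more, from 3.10 for homologous recombination and 3.17 for mismatch repair to 4.09 for nucleotide excision and 4.42 for base excision repair, but their ranges overlapped and no test was made across genes. The order was not the same in the 52 further repair genes, where the median was 3.48 for homologous recombination, 3.98 for signalling, 3.14 for end joining, 3.11 for mismatch repair, 4.63 for nucleotide excision and 3.65 for base excision repair. The differences rest on few fragments, since the members had 12 to 28 over the summit, and 16 of the 31 peaks stood on the lowest input background in the list. Moving Trp53bp1 from signalling to end joining gave 5 of 6 end joining and 5 of 7 signalling genes with a promoter peak.

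In Mof+/- WAT, 38 of the 41 genes had no promoter peak, and 28 of these had one in Mof+/+ WAT. For 4 of the 38, Brca1, Mdc1, Xrcc5 and Ogg1, a Mof+/- peak lay within 100 kb, the closest 19569 bp from Ogg1. No member had a further Mof+/- peak in its gene body. Among protein-coding genes with a Mof+/+ promoter peak, 3.14% also had a Mof+/- one, and among the members with a Mof+/+ promoter peak the count was 3 of 31 (9.68%, 3.35 to 24.9).

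Chek1 had the most displaced pair of peaks. The Mof+/- peak at chr9:36726792-36727104 was 313 bp wide and covered the 5′ end of the gene, with its summit 197 bp downstream of that start, in a noncoding exon of Chek1. The Mof+/+ peak at chr9:36726448-36726937 lay further into the gene. The peaks shared 146 bp, which is 46.6% of the Mof+/- and 29.8% of the Mof+/+ peak, and their summits were 327 bp apart. Both summits held 15 fragments, and the fold enrichment was 4.91 in Mof+/- and 3.09 in Mof+/+ on input backgrounds of 2.26 and 4.17.

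At Trp53, the gene of p53, the Mof+/- peak at chr11:69580559-69581053 was 495 bp wide and lay wholly inside the 1374 bp Mof+/+ peak at chr11:69580466-69581839, of which it made up 36.0%. Both lay downstream of the start, in an intron of Trp53, and their summits were 405 and 505 bp from the nearest start. The summit held 14 fragments in Mof+/- and 24 in Mof+/+, with fold enrichments of 4.60 and 4.44. The second Mof+/+ peak, 1170 bp wide and 3.98-fold enriched with a summit 1430 bp upstream in coding sequence of the divergent Wrap53, had no counterpart in the Mof+/- list. The 201 bp of the GRCm38.p6 genome that hold both intronic summits (chr11:69580760-69580960, plus strand) are shown next because they place the Mof+/- and Mof+/+ summits on the sequence, with capitals on the 11 bases centred on the Mof+/- summit at 69580810 and then on the Mof+/+ summit at 69580910.
Trp53 intron at the summits: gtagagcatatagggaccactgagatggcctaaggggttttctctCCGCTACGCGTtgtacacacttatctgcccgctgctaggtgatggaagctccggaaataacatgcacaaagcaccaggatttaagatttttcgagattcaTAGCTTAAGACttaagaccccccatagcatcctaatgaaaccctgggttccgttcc
The stretch holds 7 CpG sites.

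At Apex1, the Mof+/- peak at chr14:50924940-50925297 was 358 bp wide, again wholly inside the Mof+/+ peak at chr14:50924635-50925832, of which it made up 29.9%. The summits were 32 bp apart, 97 and 65 bp upstream of a start site, and both were in the UTR of Apex1. The summit held 14 fragments in Mof+/- and 28 in Mof+/+, and the fold enrichment was 3.71 and 4.42. The start of Apex1 is 75 bp from that of the divergent Osgep, and the upstream stretch shown above lies inside the Mof+/+ peak, with 2 CCAAT boxes and 1 GC box.

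Set beside the 283 protein-coding genes with promoter peaks in both lists, these genes had narrower and less enriched Mof+/+ peaks than the median. The median Mof+/+ peak of those genes was 5.03-fold enriched and 1830 bp wide, against 1374, 1198 and 490 bp for Trp53, Apex1 and Chek1. Their median Mof+/- peak was 4.29-fold enriched and 414 bp wide. Among all protein-coding genes with a Mof+/+ promoter peak, the fold enrichment of Trp53, Apex1 and Chek1 stood at percentiles 66.7, 62.1 and 13.9. Among the 290 with a Mof+/- promoter peak, that in the Mof+/- list stood at percentiles 56.6, 20.7 and 68.6. Members with stronger Mof+/+ peaks, such as Xrcc3 and Msh3 at percentile 87.7, had no Mof+/- promoter peak.

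**Figure D4:**
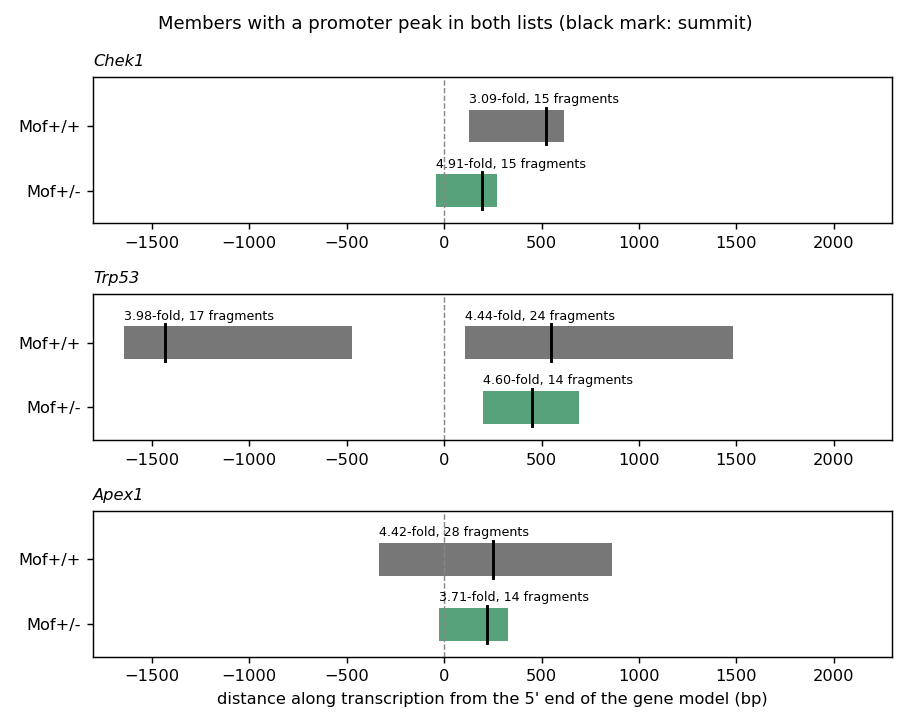
Promoter peaks of Chek1, Trp53 and Apex1 in the Mof+/+ (grey) and Mof+/- (green) lists along transcription, in bp from the 5′ end of the gene model, with a black mark at each summit and the fold enrichment and fragments over it. The Mof+/- peaks of Trp53 and Apex1 sit inside a Mof+/+ peak, while that of Chek1 is shifted toward the 5′ end by 327 bp between summits.

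Repair genes shared promoter features that the list was not built on. A start site was called CpG-rich where the surrounding 1001 bp had a ratio of observed to expected CpG of at least 0.6 and a GC content of at least 50%. At least 1 such start was present in 35 of 41 members (85.4%, 71.6 to 93.1), against 51.2% of all protein-coding genes. Counting the 5′ end of the gene model alone, it was 31 of 41, since Xrcc6, Xrcc1, Chek1 and Lig1 have their CpG-rich start inside the model. Among protein-coding genes with a CpG-rich start, 67.6% had a Mof+/+ promoter peak, and among CpG-rich members 26 of 35 had one (74.3%, 57.9 to 85.8). The share among members was thus close to that of CpG-rich genes, which lies inside its interval.

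CpG content did not separate the members with a peak from those without. The 10 genes without a Mof+/+ promoter peak had a median ratio of 0.882, and 9 of them were CpG-rich, while the 31 with one had a median of 0.781. Brca2 at 0.903, Atm at 0.919, Ercc2 at 0.902, Rad52 at 0.899, Lig3 at 0.889 and Lig4 at 0.875 all lacked a peak. Of the 6 members without a CpG-rich start, 5 had a Mof+/+ promoter peak, namely Rad51b, Rad51d, Trp53, Xrcc5 and Ercc1, and Rad54l had none. Across protein-coding genes without a CpG-rich start the share was 13.1%. At the start with most CpG sites, the 5 with a peak each missed only 1 of the 2 limits. Rad51b and Xrcc5 missed the limit of GC content, at 46.9% and 48.0%, with ratios of 0.714 and 0.609. Rad51d, Trp53 and Ercc1 missed that of the ratio, at 0.572, 0.566 and 0.533, with GC contents of 55.4%, 51.8% and 58.1%.

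**Figure D5:**
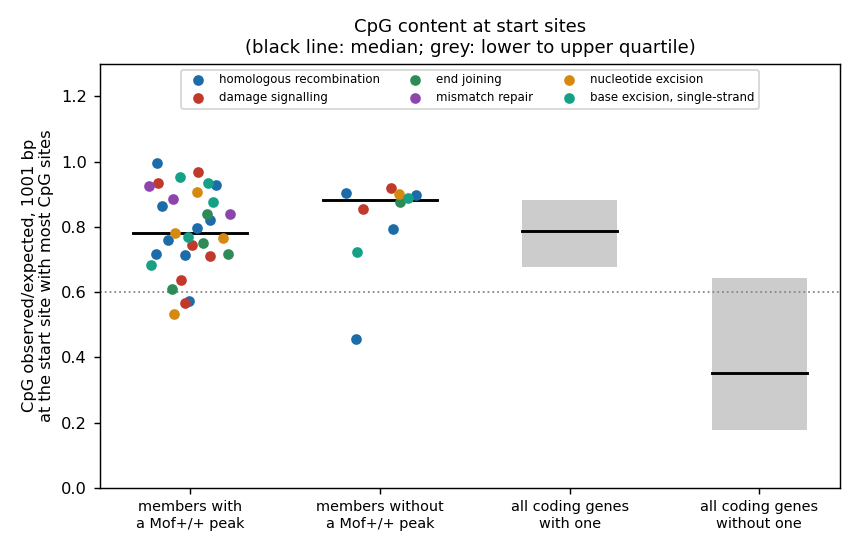
Ratio of observed to expected CpG in 1001 bp at the start site with most CpG sites (vertical axis), for the 31 members with and the 10 without a Mof+/+ promoter peak (points, coloured by pathway, with black medians of 0.781 and 0.882), and the quartiles and medians of all protein-coding genes with and without one. Members without a peak overlap those with one and, except Rad54l at 0.455, sit above the dotted line at 0.6, whereas the median of protein-coding genes without a peak is 0.353.

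Almost every second member shared its promoter region with another gene. A protein-coding gene on the other strand started within 1 kb of 20 of the 41 members (48.8%, 34.3 to 63.5), against 12.3% of all protein-coding genes. Among protein-coding genes with such a divergent neighbour, 76.9% had a Mof+/+ promoter peak, and without one 35.99%. The members did not follow that difference, with 15 of 20 (75.0%, 53.1 to 88.8) with a neighbour and 16 of 21 (76.2%, 54.9 to 89.4) without. With a limit of 300 bp, 17 members had a neighbour and 13 of these had a promoter peak.

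As examples among members with a peak, Dctn5 starts 56 bp from Palb2, Lsm3 40 bp from Xpc, Aimp2 117 bp from Pms2, Pinlyp 171 bp from Xrcc1, Hscb 202 bp from Chek2 and Zfyve26 978 bp from Rad51b. A peak that covers the starts of both genes cannot be assigned to either from its position. Other peaks had their summit inside the member, as in an intron of Xpc and in coding sequence of Xrcc1. The 5 members with a neighbour and no promoter peak were Rad51c, Rad54l, Atm, Lig4 and Lig1, at 111, 150, 307, 21 and 105 bp.

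CviKI-1, the enzyme that cut the chromatin, recognises RGCY, where R is A or G and Y is C or T. The members with a Mof+/+ promoter peak had a median of 24 sites per kb around the start and those without had 22. Protein-coding genes with a promoter peak had a median of 28.0 and those without 22.0. Members also have more annotated start sites than other genes, a median of 6 against 3, which gives each more places to be matched. With the 5′ end of the gene model alone, 30 of 41 members had a Mof+/+ promoter peak beside 38.0% of protein-coding genes, and the one lost was Xrcc6.

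Motifs were searched on both strands of the RefSeq promoter windows, which run from 250 bases before to 50 bases after a start and matched 34 of the 41 members. Prkdc, Ercc3, Nbn, Xrcc2, Xpc, Rad51d and Rad50 had no entry. The CCAAT box was present in 20 of 34 members (58.8%) and in 41.1% of all genes of the table. It was found in 16 of the 24 members with a Mof+/+ promoter peak (66.7%) and in 4 of the 10 without, while protein-coding genes with and without a promoter peak held it in 42.9% and 41.5%. The GC box was present in 25 of 34 members (73.5%) and in 38.2% of all genes of the table. It was found in 16 of 24 members with and 9 of 10 without a promoter peak, while protein-coding genes with and without one held it in 72.0% and 35.3%.

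The ETS core was present in 10 of 34 members (29.4%) and in 9.93% of all genes of the table, with 22.7% of protein-coding genes with and 6.31% without a promoter peak. Either of the E2F sites TTTGGCGC and TTTCCCGC, which are known from genes of DNA replication, was present in Brca2, Rad51c, Chek2, Mdc1, Xrcc6, Msh3 and Msh6, which is 7 of 34 (20.6%) beside 1.80% of all genes of the table and 3.81% of protein-coding genes with a promoter peak, and 3 of these 7 lacked a MOF peak. The cyclic AMP response element was present in Brca2 and Rad51c (5.88%, beside 2.03% of all genes), neither of which had a peak. A TATA box (TATAAA) was present in Brca2, Atm and Trp53 (8.82%, beside 15.7% of all genes). The motifs can overlap, as the ETS and GC box matches do in the Pms2 stretch, and a match describes letters in these windows and not a bound factor.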

How the data were processed

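The labels describe 12 libraries in 6 groups. The authors mapped reads to GRCm38 with snakePipes and called MOF peaks against input with MACS2 2.1.1.20160309.3 at a q-value of 0.1. The 2 deposited lists name no library, and whether replicates were pooled is not stated in the sources used here. By its design text the series used 2 control and 3 Mof+/- animals, although each genotype has 2 MOF libraries in the labels and 2 littermates in the study's reporting summary. The MOF antibody in the labels is not among those of that summary, and which one made the lists is not settled. The deposited fold enrichment is a ratio of fragments to local input background at the summit, with 1 added to each by the caller, and the −log10 of its p-value and of its q-value were deposited with it. A score column, 1 per list, was left unused.

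Promoter peaks had at least 1 bp within 1000 bp of an annotated GENCODE M21 start, and the one with the highest fold enrichment stood for a gene. Fragments and background at the summit were solved from fold enrichment and p-value, a step checked on simulated data. They give the depth, since no library totals were used here. Scripts used Python 3.11.15, pandas 2.3.3 and pysam 0.24.0. Intervals are 95% Wilson intervals. No test was made, as there are no replicate values. The members, pathway groups and other lists were chosen with earlier results of these data known. All members are named, and other genes only as divergent neighbours sharing a member's promoter peak, as the annotation under a summit, or as cell type markers counted together. Gm15492 was named after its values were seen. H3 and input libraries were not analysed here, and 1 neighbouring gene is not reported here.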

Additional observations from a re-analysis of the deposited data

How the results depend on the processing

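Of 58 recomputed values, 53 stayed within 1.5 times the reported count, or within the spread of the members for a median, and 5 did not. At a q-value of at most 0.001, promoter peaks in the Mof+/+ list were left at 16 members (39.0%, beside 31.3% of protein-coding genes), with 2 in homologous recombination, 3 in damage signalling and 2 in end joining. Among as many of the strongest Mof+/+ peaks as the Mof+/- list holds, 0 members had one, beside 3.12% of protein-coding genes. The fewer peaks in these alternatives follow from their construction. Past the weakest Mof+/- p-value, 24 members kept a Mof+/+ promoter peak, beside 35.8% of protein-coding genes. The Mof+/- count was 3 under every alternative but a q-value of at most 0.001, where Apex1 was lost and 2 remained. No paired analysis was possible because there is 1 list per genotype without replicate numbers, and for the same reason no replicate could be left out. Depth limits the lists to summits of about 12 or more fragments at these genes, so a promoter without a peak may hold fewer.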
